A study of Homo sapiens with 35 samples.

Results

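The 10 transcripts described here encode enzymes and carriers of the glutathione and thioredoxin systems: GCLC, GCLM, GSS, GSR, TXN, TXNRD1, SRXN1, PRDX1, NQO1 and OSGIN1. They were chosen by name, as the protein-coding entries of these 10 gene symbols among 19665 protein-coding entries, and each had a count in every one of 35 RNA-seq libraries. The cells were RPMI-8226, an established line of multiple myeloma, a cancer of antibody-secreting plasma cells. They received a 1 h pulse of 750 nM carfilzomib, a drug that blocks the proteasome, the complex that degrades proteins tagged with ubiquitin. Libraries were made on day 0 and 1, 2, 4, 6, 8 or 10 days after it, with 5 subcultures per day. The sample labels list the drug for day 0 too, but the methods of the study place the day 0 collection before the drug, and day 0 was taken here as untreated. No vehicle-treated cells of the later days were analysed here, so time in culture, medium changes and the pulse cannot be told apart. All subcultures came from a single expanded culture, so that the spread between them does not cover separate experiments, and all results concern this cell line alone.

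Glutathione is a small peptide that cells keep at high concentration to reduce peroxides and to neutralize reactive chemicals. It is made in successive steps by glutamate-cysteine ligase, whose catalytic subunit is GCLC and whose modifier subunit is GCLM, and by glutathione synthetase (GSS), and its oxidized form is reduced again by glutathione reductase (GSR). In the parallel system, thioredoxin (TXN) passes electrons from thioredoxin reductase (TXNRD1) to proteins such as the peroxidase PRDX1, which sulfiredoxin (SRXN1) repairs when it is overoxidized. NQO1 reduces quinones, and OSGIN1 is an oxidative stress-induced growth inhibitor. Many of these genes are known targets of NRF2, a transcription factor that is degraded by the proteasome in unstressed cells and binds antioxidant response elements.

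On day 1, 9 of the 10 transcripts were higher than on day 0, and GSS was the exception. NQO1 rose 14.2-fold. GCLM, SRXN1, OSGIN1, GSR, PRDX1 and TXNRD1 rose between 4.04-fold and 5.57-fold, TXN rose 2.41-fold and GCLC 1.84-fold. By day 2, these 9 had fallen from their day 1 level, OSGIN1 to below that of day 0, and GSS was higher. On day 10, GCLM, GSS, PRDX1, GSR, GCLC and TXNRD1 were 1.12-fold to 1.34-fold above day 0, whereas OSGIN1 was at 0.28 of it.

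In the background, 25.4% of the 17999 tested protein-coding entries were higher and 27.3% lower on day 1 at an adjusted p of 0.05 or below (edgeR). Of the 10 transcripts, 9 were higher and 0 lower, and 8 rose by more than 2-fold, against 7.27% of tested entries. Since the 10 genes were chosen with earlier results of these data known, these shares are a description and not a test. The median log2 fold change was 2.29 over the 10 transcripts and −0.06 over all tested entries. In each of the 9, all 5 libraries of day 1 lay above all 5 libraries of day 0, which held for 20.8% of tested entries. The values are estimated counts scaled to a common library size (CPM), which are shares of a library's protein-coding RNA: in such bulk samples, fewer cells of a type and less RNA per cell cannot be told apart. Levels were compared within a transcript only, since they were not scaled to transcript length.

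The libraries held 6519392 to 10962890 counts, of which 5373835 to 9307889 were protein coding, and no library repeated another of the same day. All 10 plasma cell markers checked were present at 1 CPM or more on every day. Their summed level was 1677 to 1812 CPM on day 1 and 2210 to 2375 CPM on day 0, and 6 of them were lower and 1 higher on day 1. Of 15 markers of other cell types, 13 had a count and 4 were at 1 CPM or more on day 0, led by KRT18 (295 CPM), a keratin. Their summed level was 313 to 386 CPM on day 0 and 406 to 434 CPM on day 1, and 3 of the 13 were at 0 on day 1. The part of these shifts in the results was not tested.

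**Figure D1:**
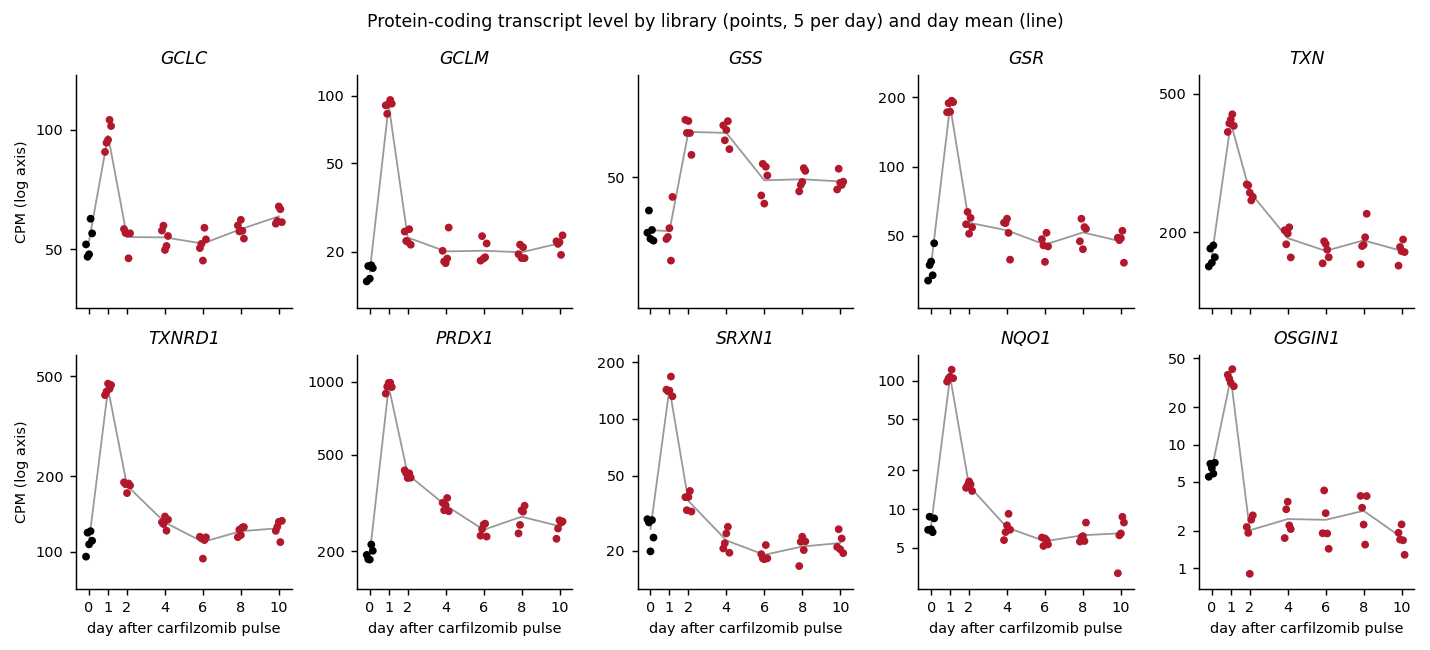
Level of each of the 10 transcripts (CPM, log axis) against day, with 1 point for each of 5 libraries per day (black, day 0, red, later days) and a line through the day means. Day 1 stands above day 0 without overlap in every panel but that of GSS, and OSGIN1 lies below its day 0 range from day 2 on.

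The core of the antioxidant response element, TGACNNNGC on either strand, was sought in the RefSeq promoter windows (GRCh38.p14, 250 bases before to 50 after a start). Windows were found for 7 of the 10 genes, 8 windows in all, and not for GSS, GSR and PRDX1. The motif was found in 3 of the 8 windows, that of GCLM and both of TXNRD1, against 13.3% of 35116 windows of the same length. The stretches shown are those that hold a match. They are written 5′ to 3′ on the strand of the gene with the match in capitals. A match describes the letters only.
GCLM, minus strand, chr1:93909431-93909570, the 140 bases before the start: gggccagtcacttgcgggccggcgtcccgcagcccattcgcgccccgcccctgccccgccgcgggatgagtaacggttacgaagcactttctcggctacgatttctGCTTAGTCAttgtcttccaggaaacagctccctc
TXNRD1, plus strand, chr12:104215639-104215778, the 140 bases before the upstream start: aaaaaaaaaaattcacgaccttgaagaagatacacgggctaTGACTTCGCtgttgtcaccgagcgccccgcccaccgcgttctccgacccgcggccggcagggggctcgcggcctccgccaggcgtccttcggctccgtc
TXNRD1, plus strand, chr12:104286920-104286949, 30 bases around the match before the downstream start: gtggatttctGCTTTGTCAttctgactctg
The match began 34 bases before the start in GCLM, and 99 and 102 bases before the 2 starts of TXNRD1. A further match in the upstream TXNRD1 window began 8 bases before the start and ran across it. In GENCODE 44, the last 26 bases of the GCLM stretch and the whole downstream TXNRD1 stretch are in exons of these genes. The upstream TXNRD1 stretch is outside exons. The windows of NQO1, OSGIN1, SRXN1, GCLC and TXN, which also rose on day 1, held no match. Sequence outside these windows was not searched.

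Of the glutathione synthesis genes, the modifier subunit GCLM (chromosome 1, 93885199 to 93909456, minus strand) rose furthest. Its level was 14.8, 17.3, 15.2, 17.4 and 16.9 CPM in the 5 libraries of day 0 and 90.7, 83.1, 92.1, 95.9 and 92.3 CPM in those of day 1. The groups did not overlap, and GCLM was 5.57-fold higher (log2 fold change 2.48 ± 0.09 SE, edgeR adjusted p = 6.81e-26). On day 2 it was 21.6 to 25.3 CPM, a drop from day 1 of 1.97 on the log2 scale. Between day 4 and day 10 it stayed between 17.8 and 25.7 CPM, each library above the highest of day 0, and was higher on each of these days (log2 0.30 to 0.42). The day 4 call rested on replicate 5 of that day, the highest library at 25.7 CPM, since without it the log2 fold change was 0.22 and did not pass.

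The catalytic subunit GCLC (chromosome 6, 53497341 to 53616970, minus strand) changed less. It was at 51.5, 47.9, 48.6, 59.7 and 54.9 CPM on day 0 and at 87.9, 92.7, 94.3, 106 and 102 CPM on day 1, without overlap. This was a rise of 0.88 ± 0.06 (log2, SE, edgeR adjusted p = 1.30e-15). On days 2 to 8 its libraries lay between 46.9 and 59.3 CPM, within the day 0 range or close to it, and no day passed the test (log2 −0.02 to 0.10). On day 10 it was 58.0, 58.9, 64.1, 63.1 and 58.5 CPM, a change of 0.21 ± 0.07 that passed (adjusted p = 0.0110), although the highest day 0 library overlapped it. The day 8 value passed when replicate 4 of day 0, the highest at 59.7 CPM, was left out (log2 0.17).

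The unequal rise of the 2 subunits was tested as a ratio within each library. The log2 ratio of GCLM over GCLC was −1.77 to −1.44 on day 0 and −0.16 to 0.04 on day 1, so that GCLM had risen 2.96-fold more than GCLC (exact two-sided permutation test, adjusted p = 0.0238 over 24 tests). The smallest p that 5 against 5 libraries allow is 0.00794 before adjustment. On day 2 the ratio was still 1.38-fold above day 0 (adjusted p = 0.0238) and on day 6 1.25-fold (adjusted p = 0.0381, exact permutation test). It was 1.13-fold to 1.19-fold above day 0 on days 4, 8 and 10, where it did not pass (adjusted p = 0.0586 to 0.0952, exact permutation test). The day 6 call was lost when all transcript classes of the genes were summed (adjusted p = 0.0889, exact permutation test). With medians in place of means, none of the 3 calls passed (adjusted p = 0.0952, exact permutation tests). A difference in medians is shared by several divisions of the libraries even where the groups do not overlap. The smallest p is thus higher than with means, so that the median tests could hardly pass after adjustment.

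GSS (chromosome 20, 34928432 to 34956027, minus strand), which joins glycine in the last step of synthesis, followed another course. It was at 36.3, 41.3, 35.03, 36.9 and 34.7 CPM on day 0, at 34.99, 35.4, 37.3, 30.9 and 44.6 CPM on day 1 and at 69.8, 64.7, 69.3, 64.6 and 56.9 CPM on day 2. Day 1 overlapped day 0 on both sides, with a log2 fold change of −0.01 and a 95% interval from −0.17 to 0.15. From day 1 to day 2 it was the only one of the 10 transcripts that rose (log2 0.83 ± 0.08, edgeR adjusted p = 3.23e-12), while the other 9 fell. It stayed at 58.9 to 69.2 CPM on day 4, fell by 0.40 on the log2 scale to day 6, and was 46.6 to 52.6 CPM on day 10, above every day 0 library (log2 0.41 ± 0.08, adjusted p = 6.24e-05). Of the GSS counts, 79.1% were in the protein-coding entry and 14.3% in transcripts with a retained intron. With all classes summed, GSS again showed −0.02 on day 1 and 0.71 on day 2 (log2).

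**Figure D2:**
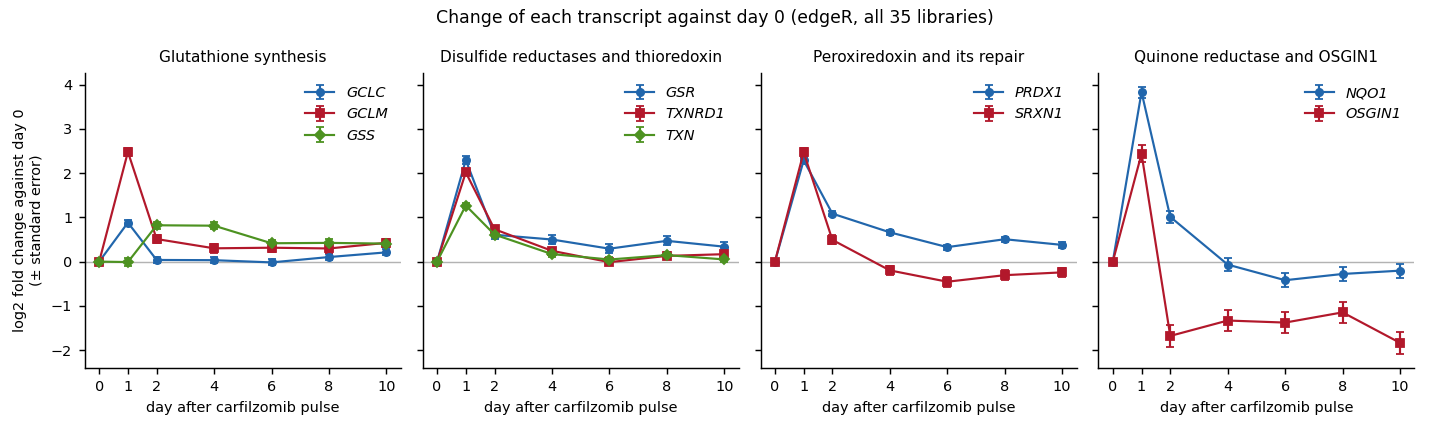
log2 fold change against day 0 (± SE, edgeR fit of 35 libraries) by day, in 4 panels by role. GCLM exceeds GCLC on day 1, GSS departs from 0 only from day 2, SRXN1 runs below PRDX1 from day 2, and OSGIN1 turns from 2.44 on day 1 to −1.68 on day 2.

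GSR (chromosome 8, 30678066 to 30727846, minus strand), which returns oxidized glutathione to its reduced form, was at 31.9, 37.3, 38.6, 33.7 and 46.4 CPM on day 0. On day 1 it was at 172, 189, 173, 193 and 191 CPM, above all of day 0, a 4.90-fold rise (log2 2.29 ± 0.10 SE, edgeR adjusted p = 2.79e-23). It fell by 1.69 on the log2 scale to day 2 and remained higher than on day 0 at every later time, with log2 values of 0.61, 0.50, 0.29, 0.47 and 0.34 from day 2 to day 10 in turn. From day 4 on, its libraries overlapped those of day 0. The day 6 call was lost without replicate 1 or 4 of day 0 or replicate 1 or 4 of day 6, with values between 0.23 and 0.27.

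Part of the spread of GSR moved with how the counts were divided between transcript classes. The share of GSR counts outside the protein-coding entry, mostly transcripts marked for nonsense-mediated decay, was 29.9%, 3.29%, 5.26%, 19.6% and 0% in the 5 libraries of day 0. The library without such counts had the highest protein-coding level (46.4 CPM) and the one with the highest share had the lowest (31.9 CPM). With all classes summed, the 5 libraries lay between 38.6 and 46.4 CPM and the coefficient of variation was 7.72% in place of 14.9%. The rise on day 1 was then 2.38 ± 0.07 on the log2 scale (edgeR). Shares of this kind were compared between day 0 and days 1 and 10 for GCLC, GCLM, GSS, GSR and TXNRD1, and none of the 10 tests passed (exact permutation tests, adjusted p = 0.413 to 0.921). For GSR on day 1 the mean share was 13.3% ± 6.09 (SD, n = 5) against 11.6% ± 12.7, a spread too wide to show a small shift.

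**Figure D3:**
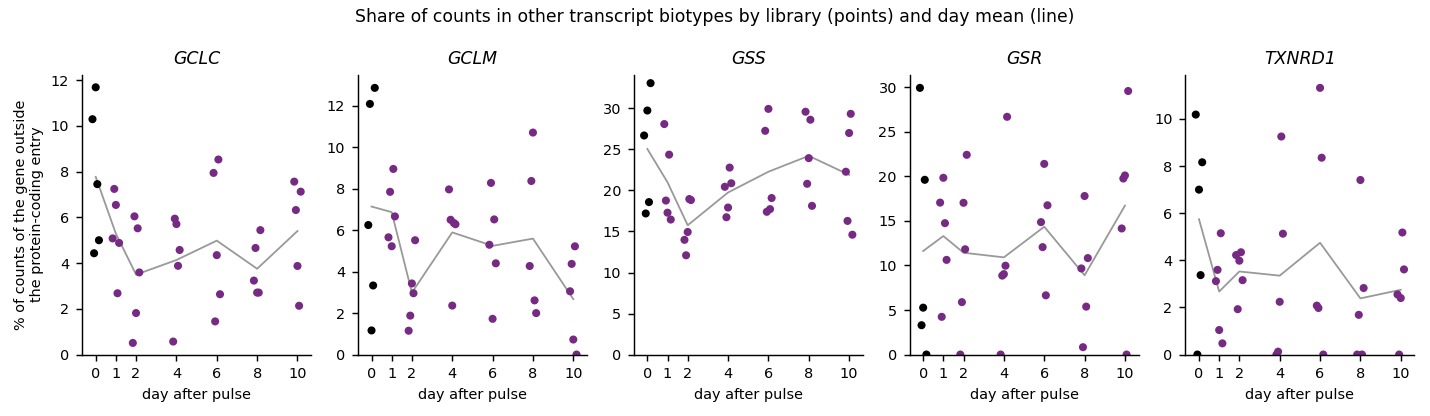
Percent of a gene's counts that lay outside its protein-coding entry, by library (points) and day mean (line), for the 5 genes with at least 350 such counts over all libraries. GSR spans 0% to 29.9% among the 5 libraries of day 0, and no panel separates day 1 from day 0.

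Thioredoxin reductase TXNRD1 (chromosome 12, 104215779 to 104350307, plus strand) was at 95.5, 119, 107, 121 and 110.5 CPM on day 0 and at 421, 435, 467, 446 and 461 CPM on day 1. The groups lay far apart, and the rise was 4.04-fold (log2 2.01 ± 0.06 SE, edgeR adjusted p = 2.18e-28). It fell by 1.28 on the log2 scale to day 2 and by a further 0.49 to day 4, where it was 121 to 138 CPM and still above every library of day 0. On day 6 it had a log2 fold change of −0.01, and on day 10 one of 0.17 ± 0.06 that passed (adjusted p = 0.0287). This last call was lost without replicate 1 or 3 of day 0 or replicate 2, 3 or 5 of day 10 (log2 0.13 to 0.16). On day 8 the value of 0.13 passed only without replicate 2 or 4 of day 0 or replicate 1 of day 8 (log2 0.16 to 0.18), or without scaling factors (0.18).

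Its substrate thioredoxin, TXN (chromosome 9, 110243810 to 110256507, minus strand), was at 160, 180, 164, 184 and 170 CPM on day 0 and at 388, 411, 421, 436 and 404 CPM on day 1. It rose 2.41-fold (log2 1.27 ± 0.06 SE, edgeR adjusted p = 1.04e-20), again without overlap. On day 2 the libraries were at 247 to 275 CPM (log2 0.61). On day 4 the difference was 0.17 ± 0.06 (adjusted p = 0.0313), which was lost without any one of replicates 1 and 3 of day 0 and replicates 1, 3 and 4 of day 4 (log2 0.14 to 0.16). On days 6, 8 and 10 TXN did not pass (log2 0.05, 0.15 and 0.05), although day 8 did so without replicate 2 or 4 of day 0 or replicate 1 or 2 of day 8 (0.18 to 0.21) and under 4 other settings.

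Within libraries, the log2 ratio of TXNRD1 over TXN rose from −0.74 to −0.59 on day 0 to 0.03 to 0.19 on day 1, a 1.68-fold shift toward the reductase (exact permutation test, adjusted p = 0.0238). On day 2 a shift of 1.09-fold passed (adjusted p = 0.0381, exact permutation test), but it missed the threshold without replicate 1, 3 or 4 of day 0 and with all transcript classes summed. Neither call passed with medians (adjusted p = 0.0952, exact permutation tests), where the smallest p is higher than with means. No shift passed on days 4 to 10. The ratio of the 2 reductases, TXNRD1 over GSR, passed on no day with the protein-coding entries (day 1: −0.27 on the log2 scale, adjusted p = 0.0816, exact permutation test). With all transcript classes summed, a comparison added after the GSR shares had been seen, GSR had gained on TXNRD1 on days 1, 6, 8 and 10, by −0.34, −0.35, −0.33 and −0.29 (exact permutation tests, adjusted p = 0.0212 to 0.0317). The call on these 2 genes thus changed with the class of transcript counted.

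PRDX1 (chromosome 1, 45510914 to 45542732, minus strand), a peroxidase that is kept active by thioredoxin, was at 193, 186, 185, 213 and 201 CPM on day 0 and at 892, 953, 987, 989 and 949 CPM on day 1. It rose 4.88-fold (log2 2.29 ± 0.06 SE, edgeR adjusted p = 5.68e-30), with no overlap. On day 2 it had the highest log2 fold change of the 10 (1.08), at 400 to 431 CPM. It was above every day 0 library on all later days as well, and on day 10 it was at 225, 248, 268, 262 and 265 CPM (log2 0.38 ± 0.06, adjusted p = 1.79e-06).

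SRXN1 (chromosome 20, 646615 to 653200, minus strand), which repairs overoxidized peroxiredoxins, was at 29.4, 28.2, 19.8, 29.1 and 23.5 CPM on day 0 and at 143, 140, 141, 168 and 132 CPM on day 1. Its rise of 5.54-fold (log2 2.47 ± 0.10 SE, edgeR adjusted p = 3.30e-24) left no overlap between the groups. By day 2 it was at 32.2 to 41.5 CPM (log2 0.49), and on day 6 it was lower than on day 0, at 18.0 to 21.4 CPM (log2 −0.45 ± 0.11, adjusted p = 0.000943). On day 8 it was lower by −0.31 (adjusted p = 0.0240), a call lost without replicate 1, 2 or 4 of day 0 or replicate 1 or 4 of day 8 (−0.27 to −0.22). SRXN1 also lost this call without scaling factors (−0.26, edgeR adjusted p = 0.05002). On days 4 and 10 it did not pass (log2 −0.20 and −0.24). Both passed without replicate 3 of day 0, the lowest of its day at 19.8 CPM (−0.28 and −0.33), and day 10 also without its replicate 2 (−0.31).

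The log2 ratio of SRXN1 over PRDX1 was −3.19 to −2.69 on day 0 and −2.84 to −2.56 on day 1, a difference of 0.18 that did not pass (adjusted p = 0.231, exact permutation test). It was −3.65 to −3.32 on day 2 and −3.91 to −3.61 on day 4, below every day 0 library. From day 2 to day 10 it was in turn 1.499-fold, 1.80-fold, 1.69-fold, 1.73-fold and 1.52-fold lower than on day 0, and all 5 days passed (exact permutation tests, adjusted p = 0.0238). With medians in place of means, none of the 5 passed (adjusted p = 0.0952, exact permutation tests). The smallest p is higher with medians, so that these tests could hardly pass even where the groups do not overlap.

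**Figure D4:**
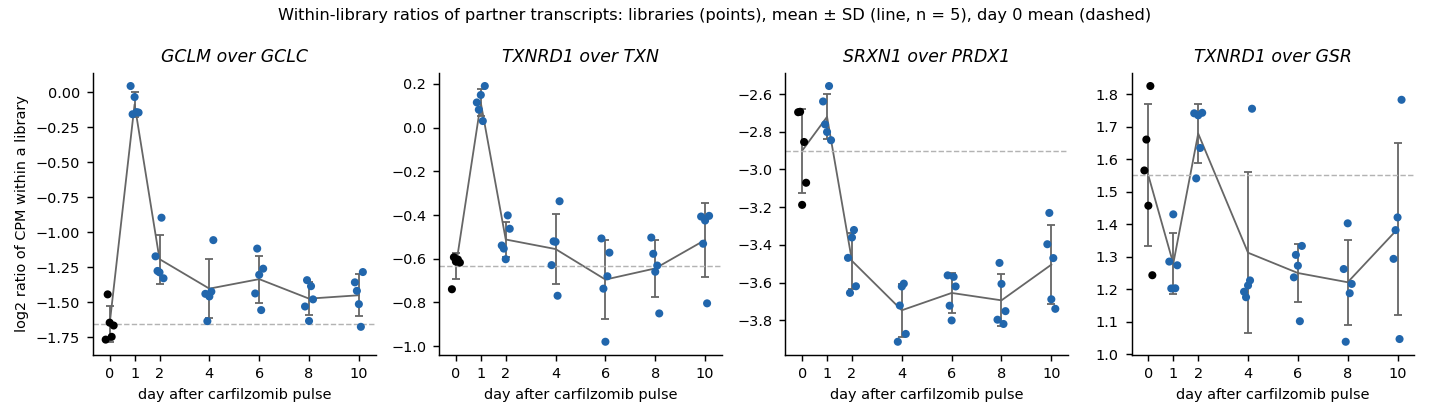
log2 ratio of CPM within each library for 4 pairs of transcripts, by day, with libraries as points, mean ± SD as a line (n = 5) and the day 0 mean dashed. GCLM over GCLC and TXNRD1 over TXN peak on day 1, and SRXN1 over PRDX1 is below its day 0 range from day 2 to day 10.

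NQO1 (chromosome 16, 69706996 to 69726668, minus strand), a quinone reductase often used as a readout of NRF2, had the largest rise of the 10. It was at 6.89, 8.73, 6.97, 6.61 and 8.47 CPM on day 0 and at 98.5, 104, 108, 122 and 105 CPM on day 1. This rise (log2 3.83 ± 0.12 SE, edgeR adjusted p = 5.21e-27) ranked 65 among the 17999 tested entries. On day 2 it was at 14.6, 15.3, 16.4, 15.6 and 13.8 CPM, still above all of day 0 (log2 1.01), and on day 4 it overlapped day 0 (log2 −0.07). On day 6 all 5 libraries, at 5.16 to 6.01 CPM, lay below all of day 0 (log2 −0.42 ± 0.16, adjusted p = 0.0342). That call was lost without replicate 2 or 5 of day 0 or replicate 2 or 5 of day 6 (−0.39 to −0.35). It was also lost without scaling factors (−0.37, edgeR adjusted p = 0.0660). Days 8 and 10 did not pass (−0.28 and −0.20).

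OSGIN1 (chromosome 16, 83931311 to 83966332, plus strand) was the sole member below its day 0 range from day 2 to day 10. It was at 5.48, 6.98, 6.43, 5.81 and 7.12 CPM on day 0, at 36.6, 34.0, 31.5, 40.6 and 29.6 CPM on day 1 and at 2.15, 1.93, 0.90, 2.47 and 2.67 CPM on day 2. The rise on day 1 was 5.41-fold (log2 2.44 ± 0.20 SE, edgeR adjusted p = 3.00e-14), and from day 1 to day 2 it fell by 4.11 on the log2 scale. It was lower than on day 0 at each later time (−1.68, −1.33, −1.38, −1.15 and −1.83 in turn), and no left-out library ended any of these calls. On day 10 its libraries were at 1.93, 1.70, 2.26, 1.68 and 1.28 CPM. These levels rest on few reads, 8 to 18 counts a library on day 2, 8 to 14 on day 10 and 29 to 44 on day 0. The SE of 0.26 on day 10 is the widest among the 10.

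On day 2, 8 of the 10 were higher and 1 lower than on day 0, against 23.2% and 24.4% of tested entries, and all libraries of the day lay above day 0 in 8 members (18.5% of entries) and below it in 1 (18.2%). From day 1 to day 2, 1 was higher and 9 were lower (20.2% and 19.4% of entries), 7 of them by more than 2-fold (3.49%). On day 4, 6 were higher and 1 lower (19% and 20.1%). The day 6 counts were 4 and 3 (17.5% and 17%), and the day 8 counts 4 and 2 (18.2% and 18.6%). On day 10, 6 were higher and 1 lower (16.1% and 15.8%). The median log2 fold change of the 10 was 0.61, 0.21, 0.02, 0.14 and 0.19 from day 2 to day 10 in turn. The day 8 count of higher transcripts was 7 without replicate 4 of day 0.

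The decline continued past day 2 for some members only. From day 2 to day 4, NQO1, SRXN1, TXNRD1, TXN and PRDX1 fell, by 1.08, 0.69, 0.49, 0.44 and 0.42 on the log2 scale, and 0 rose (16.7% of entries were lower and 13.9% higher). From day 4 to day 6, GSS, PRDX1 and TXNRD1 fell, by 0.40, 0.34 and 0.26 (5.98% of entries lower and 6.09% higher). Neither between days 6 and 8 nor between days 8 and 10 did any of the 10 pass edgeR's test, while 1.03% and 5.08% of entries were higher and 1.53% and 4.97% lower. PRDX1 had the smallest adjusted p between days 6 and 8, 0.0974 at a log2 difference of 0.18, and it passed with DESeq2 and with a filter on low counts.

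The members resembled each other to different degrees. Over the 35 libraries, Pearson's r between a member's log2 CPM and the mean of the other 9 was 0.987 for TXNRD1, 0.976 for PRDX1 and 0.967 for NQO1, 0.870 for GCLC, 0.746 for OSGIN1 and −0.382 for GSS. These values describe 7 days of 5 libraries that share a peak on day 1. Of 12189 entries of at least 1 CPM, members included, the 5 non-members most like the mean of the members were PSMD2, PSMB6, PSMB3, PSMA2 and USP5 (r = 0.989 to 0.993). The first 4 encode subunits of the proteasome and USP5 is a deubiquitinating enzyme. PSMD2 rose from 142 ± 13.3 to 1176 ± 30.2 CPM on day 1 (SD, n = 5) and PSMB6 from 48.3 ± 4.61 to 251 ± 15.6 CPM.

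Genes of related lists are given by their counts, with the higher and lower shares of all tested entries beside them, and no list was tested against another. The lists too were chosen with earlier results of these data known. Of 41 other genes of glutathione supply, transfer and use, 38 had a count, and 13 were higher and 14 lower on day 1 (25.4% and 27.3% of all tested entries, median log2 fold change −0.11). The highest was MGST1, a membrane-bound glutathione transferase (37.0 ± 2.32 to 152 ± 9.41 CPM, log2 2.04), and the lowest CHAC1, which degrades glutathione (14.7 ± 1.57 to 1.97 ± 0.96 CPM, −2.87). The subunits of the cystine importer, which supplies the cysteine for synthesis, were both lower. SLC7A11 went from 182 ± 4.67 to 64.3 ± 5.22 CPM on day 1 and 16.6 ± 2.66 CPM on day 2, and SLC3A2 from 761 ± 52.7 to 386 ± 31.1 and 168 ± 3.70 CPM. On day 2, when GCLM was still higher, SLC7A11 was thus 11.05-fold and SLC3A2 4.52-fold lower than on day 0. The selenium-dependent glutathione peroxidases GPX1 and GPX4 were lower on day 1 (log2 −0.93 ± 0.08 and −0.68 ± 0.07). On day 10, 6 of the 38 were higher and 7 lower (16.1% and 15.8% of tested entries), from ABCC4, an exporter of organic anions (0.56), to SLC3A2 (−0.87). SLC7A11, GPX1 and GPX4 were picked out after their values had been seen.

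Of 33 other thioredoxin, peroxiredoxin and related genes, 32 had a count, and 15 were higher and 13 lower on day 1 (median 0.07, all entries 25.4% and 27.3%). They ranged from MSRB1, a methionine sulfoxide reductase (14.1 ± 0.74 to 128 ± 13.6 CPM, log2 3.18), to SESN2, a sestrin (247 ± 18.0 to 39.1 ± 7.18 CPM, −2.66). On day 10, 9 were higher and 7 lower (all entries 16.1% and 15.8%), with SESN2 again the lowest (−1.07). The highest was TXNIP, an inhibitor of thioredoxin, which went from 362 ± 28.2 CPM on day 0 to 844 ± 40.8 CPM a day later and 2024 ± 144 CPM at the end (log2 2.48 ± 0.09, edgeR adjusted p = 6.03e-24). TXN itself, which TXNIP binds, had a log2 fold change of 0.05 on day 10. Besides TXNIP, RRM2, a ribonucleotide reductase subunit picked out after its value had been seen, was the only gene of this list called more than 2-fold higher on day 10 (1.12).

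Of the 8 mitochondrial antioxidant genes, 4 were higher and 2 lower on day 1 (all entries 25.4% and 27.3%). GLRX2 (log2 2.07), PRDX3 (0.89), GLRX5 (0.61) and PRDX5 (0.61) rose, NNT (−0.33) and TXN2, the mitochondrial thioredoxin (−0.32), fell, and TXNRD2 (0.39) and SOD2 (0.18) did not pass. On day 10, 2 were higher, PRDX3 (0.19) and PRDX5 (0.24), and 0 lower (all entries 16.1% and 15.8%), with 1 lower when replicate 3 of day 0 was left out. The other 6 ranged from SOD2 at −0.19 to TXNRD2 and GLRX2 at 0.06, with GLRX5 at 0.05, NNT at 0.02 and TXN2 at −0.12. TXNRD1 is a selenoprotein, and of 10 genes for making selenoproteins 4 were higher and 4 lower on day 1, from SCLY (1.01) to PSTK (−1.99). On day 10, 2 were higher and 4 lower, from SECISBP2L (0.59) to PSTK (−1.37), and the 4 became 2 without replicate 4 of day 0 or without replicate 5 of day 10. The shares of all entries are those given for the mitochondrial genes.

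Of 34 other known NRF2 targets tested, 25 were higher and 3 lower on day 1, against 25.4% and 27.3% of all entries, with a median of 1.24 against −0.06 over all tested entries. The highest of at least 1 CPM was HMOX1, heme oxygenase, at 3.98 ± 1.29 CPM on day 0 and 187 ± 22.9 CPM on day 1 (log2 5.56 ± 0.18), and the lowest ABCC2, an exporter of conjugates (−1.55). On day 10, 10 were higher and 7 lower (all entries 16.1% and 15.8%), with a median of −0.03, from TXNIP, which is in this list as well (2.48), to ABCC2 (−1.24). Of the lower ones, AKR1B1 and CBR1 did not pass when libraries were scaled without factors (−0.14 and −0.25). SLC7A11, also counted as an NRF2 target, was among the 3 that were lower on day 1. The lists are not separate observations, since they share genes. Besides SLC7A11, the targets ABCC1, GPX2, GSTM3, GSTP1 and MGST1 are in the glutathione list. TXNIP is in the thioredoxin list, and SQSTM1 and MAFG are in the list of the factor that follows.

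The transcripts of the factor, its partners and its repressors moved both ways. On day 1, 5 of 14 were higher and 8 lower, or 5 lower when libraries were scaled without factors, against 25.4% and 27.3% of all entries. The 5 that rose were SQSTM1, an autophagy receptor that sequesters KEAP1 (731 ± 53.1 to 3414 ± 144 CPM, log2 2.22), RBX1 (0.87), KEAP1 (0.81) and CUL3 (0.52), parts of the ligase that marks NRF2 for degradation, and the partner MAFG (0.47). NFE2L2, which encodes NRF2, was at 79.8 ± 4.56 CPM on day 0 and 73.1 ± 4.34 CPM on day 1 and did not pass (log2 −0.12 ± 0.08, edgeR adjusted p = 0.188). The 8 that fell were BACH2 (−1.55), NFE2L1 (−1.20), EP300 (−0.53), NFE2L3 (−0.47), BACH1 (−0.37), MAFF (−0.36), MAFK (−0.27) and CREBBP (−0.21). Of these, MAFF, MAFK and CREBBP did not pass when libraries were scaled without factors (−0.24, −0.16 and −0.10). On day 2, 11 of the 14 were lower and 2 higher (24.4% and 23.2% of all entries). On day 10, 7 were lower and 1 higher (15.8% and 16.1%), from RBX1 (0.36) to NFE2L1 (−0.98). Those higher were 2 under 5 other settings, which included scaling without factors and DESeq2, and without replicate 3 or 4 of day 0 or replicate 1, 4 or 5 of day 10.

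**Figure D5:**
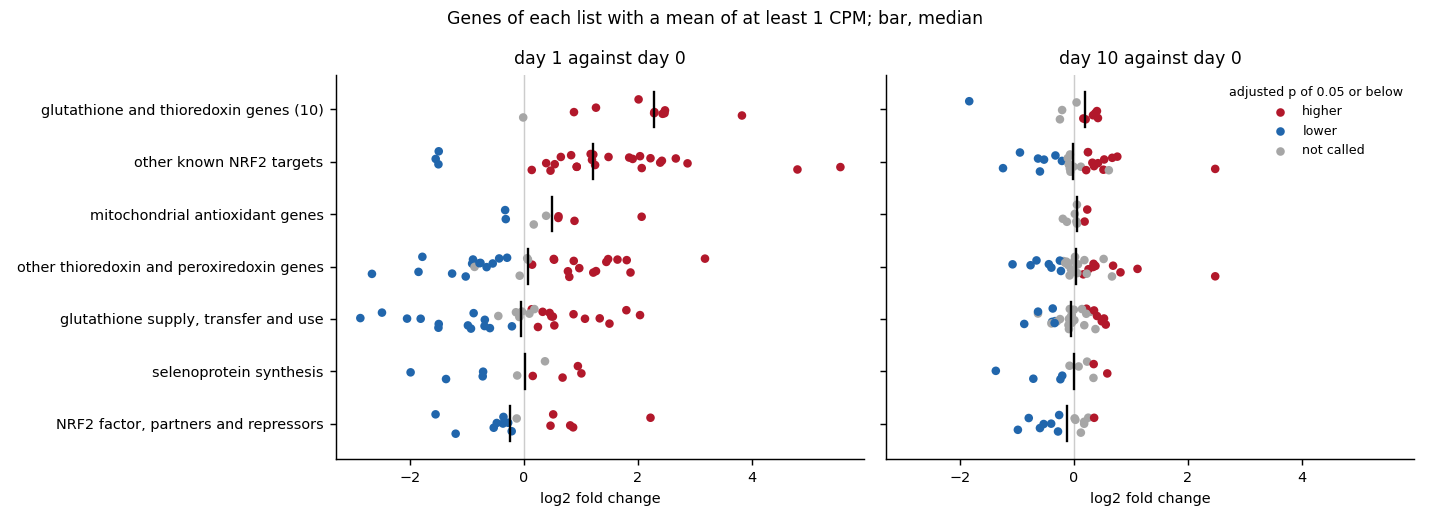
log2 fold change of the 10 transcripts and of the genes of 6 related lists with a mean of at least 1 CPM, on day 1 (left) and day 10 (right), with calls in color and the median as a bar. On day 1 the 10 transcripts and the other NRF2 targets lie mostly to the right of 0, and the remaining lists have points on both sides.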

How the data were processed

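RNA of 35 libraries (7 days, 5 subcultures each) was sequenced. The deposited values are estimated counts per gene symbol and transcript biotype, whole numbers without normalization, which the authors made with kallisto 0.44.0 and GENCODE release 28 and summarized with tximport. Because kallisto divides reads between transcripts, the protein-coding value of a gene depends on that division. Tests covered 17999 protein-coding entries, those without any count being left out, and used edgeR 4.0.16 in R 4.3.3 (glmQLFit and glmQLFTest, TMM factors 0.929 to 1.08, day as a factor over all libraries). P-values were adjusted by Benjamini-Hochberg over all entries, called at 0.05 or below, and SE was derived from the F statistic. Ratios used log2(CPM + 0.5) and exact permutation tests. The fit was tested on simulated counts first.

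The 10 genes and all lists were chosen with earlier results of these data known. Named beyond the 10 were the highest and lowest genes of each list on days 1 and 10 (mean of at least 1 CPM), all mitochondrial antioxidant genes, all NRF2 factors on day 1 and the 5 most similar profiles. Alternatives were RLE factors, no factors, filterByExpr (12301 entries), DESeq2 1.42.0, the replicate number as a block, the 2 compared days alone, all biotypes summed, another prior, medians, and each library left out. Positions came from GENCODE 44 and promoters from RefSeq. Promoter windows of GSS, GSR and PRDX1 and protein sequences were not used here. No sequencing batch was given in the sources used here.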

Additional observations from a re-analysis of the deposited data

Results flagged for a closer look

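Of 98 groups of 5 libraries checked for a library far from the other 4, 5 stood out, which is close to the 1 in 20 that chance gives. GCLC on day 2 was lowest in replicate 4, at 47.5 CPM against 54.9 to 56.3 CPM in the others. TXNRD1 on day 6 was lowest in replicate 3, at 93.8 CPM against 111 to 115 CPM, and 11.3% of its counts lay outside the protein-coding entry there. NQO1 on day 8 was highest in replicate 5, at 7.85 CPM against 5.59 to 6.16 CPM. The log2 ratio of TXNRD1 over TXN on day 0 was lowest in replicate 1, at −0.74. The log2 ratio of TXNRD1 over GSR on day 4 was highest in replicate 5, at 1.76, and 26.7% of the GSR counts of that library lay outside the protein-coding entry. The part of these shares in the 2 values was not tested.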

How the results depend on the processing

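No called result turned its direction under any alternative, and the causes of the changes below were not tested unless a sentence names them. Of the fold changes of the 10 transcripts against day 0, 410 kept their call under other settings, 6 gained and 4 lost it, and with a library left out 565 kept, 11 gained and 24 lost it. Counts of members that moved included those lower on day 8 (1 without factors and with the 2 compared days alone, 2 as reported). They also included those lower from day 4 to day 6 (5 without factors, 3 as reported). Those higher from day 6 to day 8 moved as well (1 with filterByExpr and DESeq2, 0 as reported). Without factors, NQO1 on day 6 (log2 −0.37, edgeR adjusted p = 0.0660) and SRXN1 on day 8 (−0.26, adjusted p = 0.05002) were no longer called lower. Of the NRF2 factor list, 5 were lower on day 1 without factors (8 as reported), and 2 were higher on day 10 without factors, with filterByExpr, with the replicate block, with DESeq2 and with the 2 compared days alone (1 as reported). Other lists lost calls with scaling too. On day 1, these included ABCC1, GSTM4, MSRB3 and TMX3 among the higher with RLE factors. Among the lower, they included GSTM3 and HAGH without factors. Without factors, the share of called entries that were higher went from 48.7% to 59.3% on day 2, from 48.6% to 61.6% on day 4, from 50.4% to 60.4% on day 10 and from 50.5% to 29.1% from day 4 to day 6, and with DESeq2 from 40.3% to 53.0% from day 6 to day 8.

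With medians, all 10 ratio calls reached only an adjusted p of 0.0952 (exact permutation tests): GCLM over GCLC at 1.52, 0.39 and 0.36 on days 1, 2 and 6, TXNRD1 over TXN at 0.73 and 0.074 on days 1 and 2, and SRXN1 over PRDX1 at −0.61 (day 2), −0.87 (day 4), −0.77 (day 6), −0.90 (day 8) and −0.62 (day 10). With medians the smallest p is higher than with means, so that these calls could hardly pass after adjustment. The day 2 ratio of TXNRD1 over TXN also missed with a prior of 2 CPM (0.12, adjusted p = 0.0519, exact permutation test) and with all biotypes summed (0.10), as did GCLM over GCLC on day 6 (0.33). TXNRD1 over GSR passed with all biotypes summed at −0.34, −0.35, −0.33 and −0.29 on days 1, 6, 8 and 10.

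With single libraries left out, the members lower on days 4 and 10 numbered 1 to 2, those higher on day 8 4 to 7 and lower 1 to 2, those higher from day 6 to day 8 0 to 1 and those lower from day 8 to day 10 0 to 1. Calls of single members described above as lost without a library can change further counts, which are not listed here. On day 10, the NRF2 factors higher numbered 1 to 2, the mitochondrial genes lower 0 to 1 and the selenoprotein genes lower 2 to 4. GCLM over GCLC ranged from 0.17 to 0.31, 0.26 to 0.37, 0.15 to 0.23 and 0.16 to 0.26 on days 4, 6, 8 and 10, TXNRD1 over TXN from 0.094 to 0.14 and 0.092 to 0.19 on days 2 and 10, and TXNRD1 over GSR from −0.35 to −0.20, −0.35 to −0.17, −0.38 to −0.23 and −0.41 to −0.26 on days 1, 4, 6 and 8. The smallest p rises when 4 libraries face 5.

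Between subcultures of the same number on different days, r of the deviations from the day means had a median of 0.014 over 105 pairs, 9 of them over 0.1, and of different numbers −0.0033 over 420 pairs, so the number was not taken as a pairing. The replicate block changed no call of the 10 transcripts. It was not run for ratios and shares, since 5 pairs cannot give a p below 0.0625. Small changes of OSGIN1 and NQO1 are limited by depth, with 8 to 58 counts a library outside days 1 and 2. On day 2, OSGIN1 had 8 to 18 counts a library.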
